A study of Mus musculus with 24 samples.

Results

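Keratin genes were followed in RNAseq of mouse embryonic stem cells (ESCs) and of neural progenitor cells (NPCs) derived from them. The members were all gene symbols made of Krt, a number and at most 1 further letter, and genes of keratin-associated proteins (Krtap) were left out. Of the 21909 symbols of the RNAseq tables, 54 met this rule, 28 of type I and 26 of type II, and each stood on a single line.

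Keratins are the intermediate filament proteins of epithelial cells. Their filaments are built from pairs of a type I (acidic) and a type II (neutral to basic) chain, so that epithelial cells make partners of both types. Krt8 and Krt18 are the first keratins of the embryo and, with Krt7, Krt19 and Krt20, belong to simple epithelia. Krt5 and Krt14 belong to the basal layer of stratified epithelia, Krt1 and Krt10 to the layers above, and many others to hair and its sheath. Neural progenitors are known instead for vimentin and nestin.

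The study maps nucleolus associated domains (NADs) and gene expression in ESCs and NPCs, and keratins were examined here for expression and for position relative to NADs. The E14 ESCs grew without feeder cells in 3 µM CHIR99021 and 1 µM PD0325901, which inhibit GSK3β and MEK, with 1000 U/ml LIF. NPCs came from embryoid bodies of these ESCs over 8 days, the last 4 with 2 µM retinoic acid, and are labelled as Pax6-positive radial glia. RNAseq of polyadenylated RNA comprised 3 replicates of each cell type, none of them treated further. NADs came from ESCs with an inducible transgene at Rosa26 under a minimal hsp promoter, and from NPCs made of them. The transgene encoded histone H2B fused to the adenine methyltransferase Dam, with (H2B-Dam-NoLS) or without (H2B-Dam) a nucleolar localization signal (2 experiments for each cell type). Induction lasted 15 h and used doxycycline at 100 ng/ml together with Shield1 at 1 µM.

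Expression is given as RPKM, reads scaled to gene length and sequencing depth, as the authors deposited it. Low values were whole multiples of 1 read when multiplied by the genomic span of a gene, within 0.1 read for 97.2% of 27481 values under 60 reads. When multiplied by exon length, 23.0% of 38378 values under 60 reads were whole. Deposited RPKM therefore follows gene span, introns included. The methods of the study speak of coverage of exons instead, and whether intron reads are among those counted is not given in the sources used here. From the value of 1 read the depth came to about 34000000, 33700000 and 30800000 reads for ESC replicates 1, 2 and 3, while the NPC replicates had 30100000, 27300000 and 32300000 reads. Reads of 39 of the 41 keratin genes with any read came out whole, and the exceptions were Krt80 and Krt87. The limit was 0.1 read or, for genes with many reads, 0.02% of the reads. For Krt18, Krt8 and Krt19 this limit takes in nearly any distance from a whole number, so the check says nothing about them. Their largest distances were 0.37, 0.36 and 0.18 read. Shares and ratios of different keratins below use RPKM per exon length, computed from these reads, whereas values of a single gene and sums are deposited RPKM unless stated.

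ESC replicate 3 stood apart from the others. Over 7757 genes, its correlation with ESC replicate 1 on the log2 scale was 0.9631, whereas that between ESC replicates 1 and 2 was 0.9985, and its deposited RPKM summed to 141243, against 105011 and 106892 in replicates 1 and 2. The main results that rest on it are given with and without it. The values of ESCs and of NPCs come from separate tables, and the labels name no batch, so a batch effect cannot be told apart from a difference between the cell types.

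Markers matched the cell type labels. Summed RPKM of 8 genes of pluripotent cells was 589, 594 and 675 in ESC replicates 1, 2 and 3 and at least 8.14 in the NPC replicates, with a mean of 9.59 ± 1.44, and Pou5f1 was at 156 ± 40.1 and 0.0532 ± 0.0135 (mean ± SD, n = 3). Summed RPKM of 10 genes of neural progenitors was 10.7, 11.3 and 11.5 in ESCs and 48.8, 52.2 and 51.5 in NPCs, with nestin (Nes) as the most abundant in NPCs, and Pax6 at 0.0115 ± 0.00626 in ESCs and 1.55 ± 0.123 in NPCs (n = 3). Tubb3, the most abundant of this list in ESCs, was lower in NPCs, with 6.42, 7.57 and 7.86 RPKM in ESCs and 4.47, 3.56 and 4.41 RPKM in NPCs (log2 fold change -0.69 ± 0.11, limma adjusted p = 0.00185).

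Few keratin genes reached 1 RPKM as deposited. In ESCs 3 of 54 had a mean of 1 RPKM or more (Krt42, Krt8 and Krt17, or 2 genes without ESC replicate 3, which alone brings Krt17 over 1 RPKM), and in NPCs 6 (Krt18, Krt8, Krt19, Krt10, Krt7 and Krt15), or 8 genes in all. Among all symbols on a single line, 29.2% in ESCs and 33.3% in NPCs had 1 RPKM or more, against 5.56% and 11.1% of the keratin genes. At 0.5 RPKM there were 7 keratin genes in ESCs and 8 in NPCs. These counts depend on the unit, since deposited RPKM follows gene span. Per exon length, Krt19, Krt13, Krt18 and Krt10 also had means above 1 in ESCs (2.75, 2.51, 2.14 and 1.27). In NPCs Krt20, Krt14 and Krt23 did so as well (3.22, 2.35 and 1.11). The share of all symbols on that scale is not given here. In all 6 samples 13 keratin genes were at 0, 5 of type I and 8 of type II. In 22 keratin genes all 3 NPC samples lay above all 3 ESC samples, which was 40.7% of the members beside 38.1% of all symbols. In 4 keratin genes all ESC samples lay above all NPC samples, 7.41% of the members beside 22.9% of all symbols. These 4 were Krt13, Krt16, Krt17 and Krt42, all of type I.

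For the comparison of NPCs with ESCs, limma was fitted to log2(RPKM + 1) of the 7757 genes with 1 RPKM or more in at least 3 of 6 samples, and fold changes below are on this scale, which understates changes of low genes. At an adjusted p under 0.05, 70.2% of the tested genes were called, 37.0% higher and 33.1% lower in NPCs. With a log2 fold change of at least 1 in size as well, 28.7% were called, 16.7% higher and 12% lower. Of the keratin genes 7 passed the filter and 47 were not tested. All 7 were called by both rules, 6 higher (Krt7, Krt8, Krt10, Krt15, Krt18 and Krt19) and 1 lower (Krt42). Except for Krt8, at 1 RPKM or more in all 6 samples, and Krt18, which also reached it in ESC replicate 3, they passed through samples of 1 cell type and had to differ, so this count supports nothing about keratins as a group. By the rule with a log2 fold change of 1, Krt10 was lost with median scaling, quantile normalization and without ESC replicate 1, and Krt7 with quantile normalization. When a sample was left out and the filter applied again to the other 5, a choice made after seeing the data, the keratins called were Krt8, Krt18 and Krt42 without any NPC replicate, and all but Krt42 without any ESC replicate, since the others were then not tested. In bulk samples, fewer cells with a keratin and less of its RNA in each cell cannot be told apart.

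Among the tested keratins of simple epithelia, Krt18 had the largest rise. This type I gene (chr15:102028180-102032027, plus strand, GRCm38) had 0.586, 0.630 and 1.19 RPKM in ESC replicates 1, 2 and 3 and 36.7, 36.9 and 36.8 RPKM in NPC replicates 1, 2 and 3. All NPC samples lay above all ESC samples, and ESC replicate 3 was the highest of its group. Behind these values were 77, 82 and 140 reads in ESCs and 4260, 3865 and 4576 reads in NPCs. The rate of reads was 46.7-fold higher in NPCs (95% counting interval 41.6 to 52.5). The log2 fold change was 4.41 ± 0.14 (SE, n = 3 and 3, limma adjusted p = 5.56e-07), and 4.56 ± 0.04 without ESC replicate 3 (limma adjusted p = 7.56e-10).

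Krt8, the type II partner of Krt18 and its neighbour (chr15:101996698-102004482, minus strand), had 1.75, 1.80 and 2.36 RPKM in the ESC samples and 12.9, 15.0 and 14.1 RPKM in the NPC samples. The groups did not overlap. Krt8 was the keratin with the most even level between cell types among those of simple epithelia, 7.12-fold higher in NPCs by reads (95% counting interval 6.75 to 7.53), with a log2 fold change of 2.34 ± 0.11 (limma adjusted p = 3.64e-06). Over 88.6% of the Krt8 transcript, a stretch elsewhere in the genome, annotated as the processed pseudogene Krt8-ps, had 95% identity or more, up to 97.9%. How reads that map to several places were treated is not given in the sources used here, so the level of Krt8 is uncertain.

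Krt19, a type I keratin of simple epithelia (chr11:100140810-100148665, minus strand), had 0.426, 0.430 and 0.798 RPKM in ESCs and 10.3, 9.98 and 9.84 RPKM in NPCs. Its NPC samples were close together and above all ESC samples, of which replicate 3 was again the highest. The log2 fold change was 2.84 ± 0.11 (limma adjusted p = 1.37e-06), and 2.95 ± 0.04 without ESC replicate 3 (limma adjusted p = 2.62e-09). Krt7, a type II keratin of simple ducts and glands (chr15:101411043-101430313, plus strand), had 0.0457, 0.0708 and 0.155 RPKM in ESCs and 1.74, 1.79 and 1.70 RPKM in NPCs. The groups of Krt7 were apart in every sample as well, with 30, 46 and 92 reads in ESCs and 1009, 938 and 1061 in NPCs. Its log2 fold change was 1.33 ± 0.05 (limma adjusted p = 9.81e-07), on a span of 19271 bases that lowers its deposited RPKM.

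Krt20, a type I keratin of the intestinal lining and urothelium (chr11:99428403-99438150, minus strand), had no read in any ESC sample and 221, 174 and 159 reads in the NPC samples, or 0.752, 0.655 and 0.505 RPKM. Against a floor of 3 reads over all ESC samples, Krt20 was at least 203-fold higher in NPCs. Krt23 likewise had no read in ESCs and 42, 55 and 58 reads in NPCs, at least 56.8-fold higher. Krt20 and Krt23 were under the filter and were not tested. Counting intervals and floors cover counting error only. All 6 keratins of simple epithelia thus had higher values in every NPC sample than in every ESC sample, as 38.1% of all symbols did, with a summed RPKM of 2.80, 2.93 and 4.50 in ESCs and 62.5, 64.4 and 63.1 in NPCs.

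**Figure D1:**
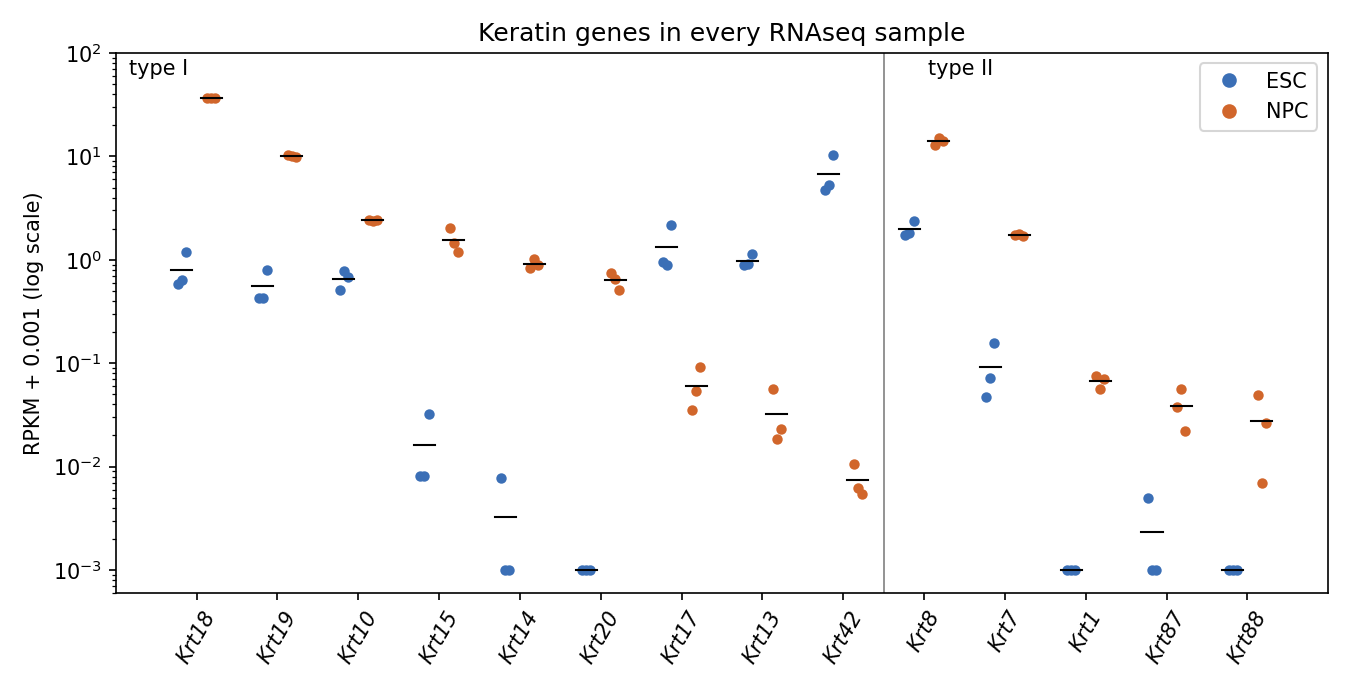
RPKM plus 0.001 of the 14 named keratin genes on a log scale, with a point for each of 3 ESC samples (blue) and 3 NPC samples (orange) and a bar at the mean of each group. Krt42, Krt17 and Krt13 are higher in all ESC samples, and the other 11 genes are higher in all NPC samples, with Krt18 at a mean of 36.8 RPKM.

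Keratins of the basal layer of stratified epithelia were close to absent in ESCs. Krt15 (type I, chr11:100131758-100135928, minus strand) had 1, 1 and 4 reads in the ESC samples and 255, 164 and 160 reads in the NPC samples, which gives 0.00704, 0.00711 and 0.0312 RPKM and 2.03, 1.44 and 1.19 RPKM. NPC replicate 1 was the highest sample, and the groups did not overlap. The log2 fold change was 1.32 ± 0.11 (limma adjusted p = 7.10e-05). Krt14 (type I, chr11:100203162-100207548, minus strand) had 1, 0 and 0 reads in ESCs and 110, 122 and 125 reads in NPCs, or 0.832, 1.02 and 0.882 RPKM in the NPC samples. The ratio of its read rates was 392 (95% counting interval 69.9 to 15535), wide because it rests on 1 read in ESCs. Krt14 shares 95% identity or more with Krt17 and Krt42 over 17.8% of its transcript. Krt5, the type II partner of Krt14 in basal cells, had 1, 0 and 1 reads in ESCs and 1, 3 and 10 reads in NPCs, with groups that do not overlap on the RPKM scale and a mean of 0.0259 ± 0.0245 RPKM in NPCs (SD, n = 3). Krt14 transcripts in NPCs thus stood beside little of the usual partner.

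Of the keratins of the upper epidermis, Krt10 had reads in all samples of both cell types. This type I gene (chr11:99385254-99389364, minus strand) had 0.507, 0.772 and 0.680 RPKM in ESCs and 2.45, 2.35 and 2.45 RPKM in NPCs. Its log2 fold change of 1.05 ± 0.07 (limma adjusted p = 2.25e-05) was the smallest of the tested keratins, with groups that did not overlap. Its partner Krt1 (type II, chr15:101845426-101850794, minus strand) had no read in ESCs and 12, 8 and 12 reads in NPCs, at least 11.7-fold higher, at a mean of 0.0661 ± 0.0101 RPKM. Krt9, a type I keratin of palm and sole skin, had no read in ESCs and 64, 68 and 50 reads in NPCs, at least 66.7-fold higher. Krt2 and Krt77, type II keratins of the same layers, were at 0 in all 6 samples.

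Krt42 had the opposite pattern. This type I gene, a close relative of Krt17 (chr11:100262882-100269871, minus strand), had 4.76, 5.28 and 10.3 RPKM in ESC replicates 1, 2 and 3 and 0.00949, 0.00525 and 0.00443 RPKM in the NPC samples. ESC replicate 3 was about as far above replicates 1 and 2 as these were above 0, and no NPC sample had more than 2 reads, against 1132, 1244 and 2207 reads in ESCs. The ratio of read rates, ESCs over NPCs, was 1043 (95% counting interval 407 to 3829), the largest ratio of any keratin with reads in both cell types. The log2 fold change was -2.88 ± 0.25 (limma adjusted p = 6.98e-05), and -2.58 ± 0.04 without ESC replicate 3 (limma adjusted p = 5.69e-09). A stretch of 9.34% of its transcript has 95% identity or more with Krt14, which had at most 1 read in an ESC sample.

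Krt17, induced in wounded and hyperproliferating epidermis (type I, chr11:100256217-100261029, minus strand), had 0.952, 0.881 and 2.19 RPKM in ESCs and 0.0345, 0.0534 and 0.0901 RPKM in NPCs. ESC replicate 3 was again the highest, and the groups did not overlap. By reads Krt17 was 21.8-fold higher in ESCs (95% counting interval 14.7 to 33.7). It had 1 RPKM or more in a single sample and was not tested, but was called lower in NPCs when genes with a group mean of 1 RPKM or more were tested, a filter chosen after seeing the data (log2 fold change -1.10 ± 0.20, limma adjusted p = 0.00273, range of adjusted p over its alternatives 5.76e-04 to 0.00654). Krt17 passed that filter through its ESC mean alone, which reached 1 RPKM only with ESC replicate 3. It could thus only be called lower, and this call carries no weight. Krt16, its relative with the same pattern in wounds, had 23, 38 and 38 reads in ESCs and 1, 1 and 0 in NPCs. A pseudogene, Gm11597, holds 40.4% of the Krt16 transcript at 95% identity or more, so that its level is uncertain.

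Krt13, a type I keratin of the lining of mouth and oesophagus (chr11:100117327-100121566, minus strand), had 0.894, 0.916 and 1.13 RPKM in ESCs and 0.0548, 0.0173 and 0.0219 RPKM in NPCs. All ESC samples lay above all NPC samples, with replicate 3 close to the others, 30.9-fold by reads (95% counting interval 17.5 to 60.2). The NPC samples had 7, 2 and 3 reads, so this ratio depends on NPC replicate 1. Krt4, its type II partner, had no read in ESCs and 2, 3 and 4 reads in NPCs. The type I genes Krt13, Krt16, Krt17 and Krt42 were thus higher in ESCs, and no type II gene had higher values in all ESC samples than in all NPC samples.

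The other keratins had few reads. Of 15 keratins of the hair shaft in the tables, Krt36 was the most abundant in NPCs, with no read in ESCs and 11, 15 and 9 reads in NPCs, and 14 had means under 0.1 RPKM in both cell types. All 9 keratins of the hair follicle sheath had means under 0.1 RPKM, 5 of them at 0 in all samples, and the most abundant was Krt28 with 1, 0 and 4 reads in ESCs and 5, 6 and 4 in NPCs. Of the other type II genes, Krt88, Krt1 and Krt87 had the highest means in NPCs, with 0.181 ± 0.145, 0.145 ± 0.0222 and 0.128 ± 0.0581 RPKM per exon length (SD, n = 3). Over 73.0% of its transcript Krt87 has 95% identity or more with other places, the longest stretch being 949 bases in Gm49425 and shorter ones lying in Krt81, Krt83 and Krt86, and its reads did not come out whole. Krt76 had 15, 3 and 0 reads in the NPC samples and none in ESCs. Counts this low carry a wide counting error.

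Summed over each type, keratin RNA was higher in NPCs. Type I genes summed to 8.40, 9.32 and 16.7 RPKM in ESCs and 53.9, 53.2 and 52.4 RPKM in NPCs, a ratio of means of 4.62, or 6.00 without ESC replicate 3 and 3.74 per exon length. Type II genes summed to 1.81, 1.88 and 2.52 RPKM in ESCs and 14.9, 17.0 and 16.0 RPKM in NPCs, a ratio of 7.71, or 8.66 without ESC replicate 3 and 7.79 per exon length. Krt8 made up 95.1% of the type II sum in ESCs and 87.5% in NPCs, so the uncertainty of its level given above holds for this sum too. For each type the groups did not overlap, and the two-sided exact permutation test gave p = 0.100, the smallest that 3 against 3 samples allow.

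The type I pool changed its composition. Per exon length, Krt42 made up 69.3% of the type I sum in ESCs, followed by Krt17 with 9.39%, Krt19 with 6.21%, Krt13 with 5.67% and Krt18 with 4.84%. The order of Krt19 and Krt13 rests on ESC replicate 3, since Krt13 was the higher of these in ESC replicates 1 and 2. In NPCs Krt18 made up 59.5% and Krt19 30.2%. The type II pool kept its leading gene, with Krt8 at 94.4% in ESCs and 85.9% in NPCs and Krt7 at 5.14% and 12.7%. Type I transcripts exceeded type II transcripts in every sample, by 4.44, 4.66 and 6.48 times in ESCs and 2.78, 2.42 and 2.51 times in NPCs per exon length. Between the partners of simple epithelia, the ratio of Krt18 to Krt8 per exon length was 0.226, 0.235 and 0.338 in ESCs and 1.92, 1.66 and 1.76 in NPCs. Krt8 exceeded Krt18 in all ESC samples and Krt18 exceeded Krt8 in all NPC samples. Since the level of Krt8 is uncertain, as given above, so are these ratios and this order. The ratio of Krt42 to Krt18 per exon length was 13.7, 14.2 and 14.7 in ESCs and 2.94e-04 ± 1.25e-04 in NPCs (SD, n = 3), and it varied little between ESC samples, since both genes were highest in replicate 3.

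**Figure D2:**
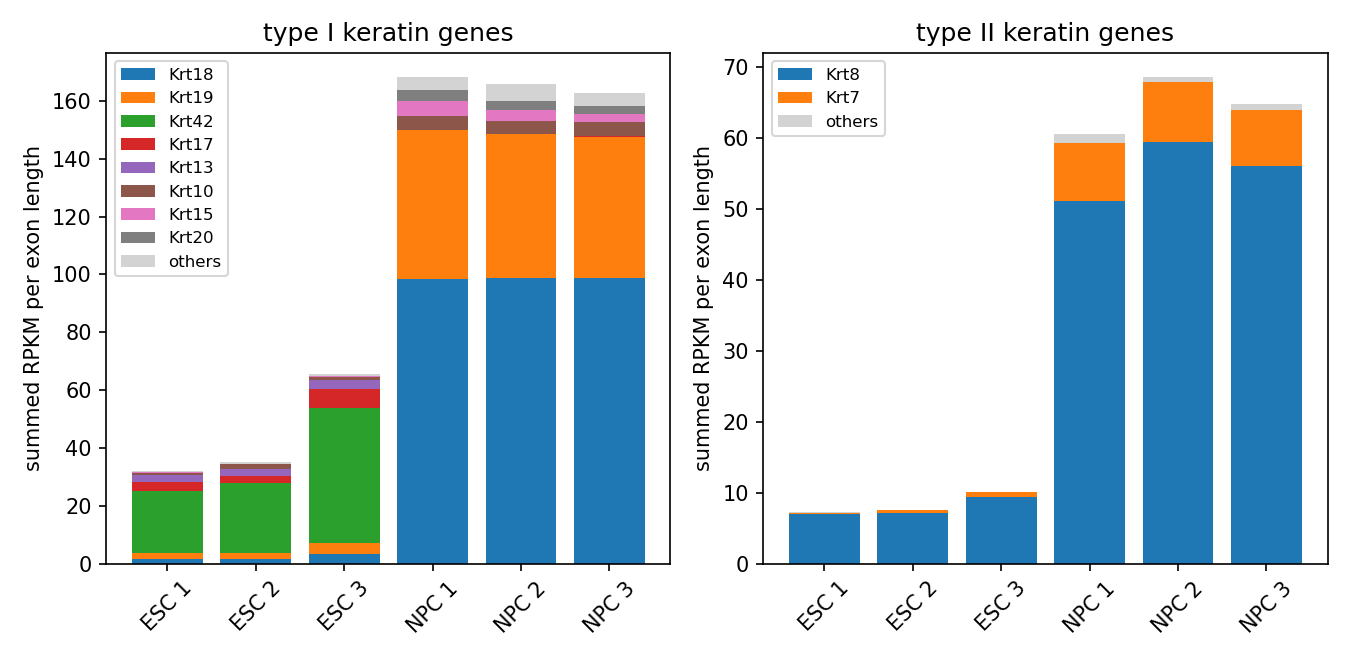
Summed RPKM per exon length of type I (left) and type II (right) keratin genes in each of 3 ESC and 3 NPC samples, stacked by gene, with axes from 0. Krt42 is the largest share of type I in the ESC samples (69.3% of the mean sum) and Krt18 and Krt19 are in the NPC samples (59.5% and 30.2%), while Krt8 leads type II in all samples.

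Some calls among genes that work with keratins were bound by the filter, since Dsp, Dsc2 and Des passed it through NPC samples alone and Lmna through ESC samples alone, and each of these could be called in 1 direction only. The counts of called genes below stand beside 70.2% of all tested genes called, 37.0% higher and 33.1% lower. Of 16 desmosome genes 3 were tested, the keratin anchor desmoplakin (Dsp) rose by 2.27 ± 0.09 and the cadherin Dsc2 by 1.78 ± 0.05, and plakoglobin (Jup) fell by 1.15 ± 0.14 on the log2 scale (limma adjusted p = 1.34e-06, 3.07e-07 and 3.39e-04). Plectin (Plec), which links keratins to other structures, rose by 0.53 ± 0.16 (limma adjusted p = 0.0213), a call that was lost without any of the 3 NPC replicates and a rise of 0.35 without ESC replicate 3, and it was 1 of 2 tested of 5 plakin genes. The hemidesmosome gene Cd151 was not called (0.19 ± 0.09, limma adjusted p = 0.0947, and 0.0156 without ESC replicate 3). Of 16 other intermediate filament genes 8 were tested, 4 rose and 3 fell. Nestin (Nes) rose by 2.83 ± 0.09 and desmin (Des) by 1.89 ± 0.12, Lmna and Lmnb2 fell, and vimentin (Vim), the most abundant, had 39.5 ± 5.59 RPKM in ESCs and 45.6 ± 2.77 in NPCs (limma adjusted p = 0.205, and 0.00207 without ESC replicate 3).

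For genes of epidermis and of epithelial junctions, counts of called genes say little. Sfn, Tgm1, Tfap2c and Cdh1 among others passed the filter through ESC samples alone and could only be called lower. Sbsn and Cebpb passed through NPC samples alone and could only be called higher. Of 52 cornified envelope genes 29 were at 0 in all samples and 3 were tested. Stratifin (Sfn) fell by 3.85 ± 0.26 and transglutaminase 1 (Tgm1) fell by 4.18 ± 0.08, and Sbsn rose by 1.36 ± 0.06 on the log2 scale. Of 14 epidermal transcription factors 4 were tested, Klf4 and Tfap2c were among the 3 that fell and Cebpb rose, while Trp63, the regulator of stratified epithelia, was under 0.1 RPKM in both cell types. Of 14 genes of epithelial junctions and identity 10 were tested, 6 fell, among them Cdh1, Spint1 and Cldn4, and Cldn6 rose.

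Sums of markers of other cell types that carry keratins were higher in NPCs for endoderm and mesothelium, and were not for trophectoderm and surface ectoderm. Summed RPKM of 13 genes of primitive and visceral endoderm, which has Krt8, Krt18 and Krt19, was 0.232, 0.270 and 0.273 in ESCs and 20.0, 21.4 and 20.5 in NPCs. Of this list Gata6 was the most abundant in NPCs at 6.69 ± 0.337 RPKM and Gata4 had 5.90 ± 0.105 (n = 3), and Afp, Amn, Cubn and Hnf4a were under 0.1 RPKM in both cell types. Summed RPKM of 5 genes of mesothelium, another simple epithelium with keratins, was 0.821, 0.787 and 0.842 in ESCs and 24.5, 26.5 and 26.7 in NPCs. Upk3b had 14.5 ± 1.24 RPKM and Wt1 7.84 ± 0.304 in NPCs. Msln, the most abundant of this list in ESCs, went the other way, with 0.766, 0.701 and 0.796 RPKM in ESCs and 0.110, 0.167 and 0.157 RPKM in NPCs. The 3 tested genes of mesothelium, like the 6 of endoderm, passed the filter through NPC samples alone and could only be called higher, so these calls carry no weight. Trophectoderm genes (9 genes, led by Eomes, Prl3d1 at 0) summed to 2.15, 2.33 and 2.16 in ESCs and 0.973, 1.09 and 1.09 in NPCs, and surface ectoderm genes (7 genes, led by Grhl3 in ESCs and Dlx3 in NPCs, none at 0 in all samples) to 1.59, 1.60 and 1.13 and to 1.25, 1.26 and 1.21. Not all members followed these sums, and Gata3, Elf5 and Plac1 of the former list and Dlx3, Gata3, Wnt6, Grhl2 and Trp63 of the latter were higher in all NPC samples than in all ESC samples. The same held for 38.1% of all symbols. Elf5, Plac1 and Trp63 were near 0 in both cell types, with means of 0.00672, 0.00309 and 0.00198 RPKM in NPCs. No gene of the trophectoderm or surface ectoderm list passed the filter. The part of such cells in the keratin values was not tested.

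**Figure D3:**
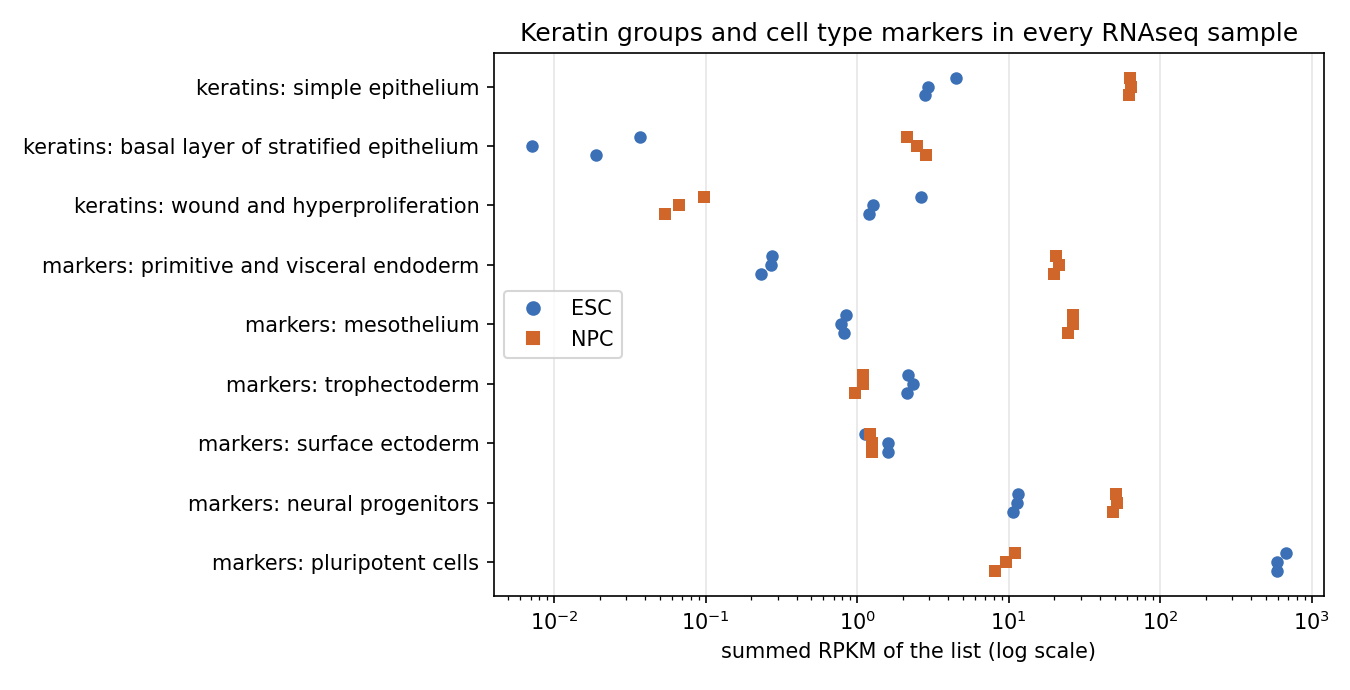
Summed RPKM of keratin groups by site of expression and of cell type markers, on a log scale, with a point for each of 3 ESC samples (blue circles) and 3 NPC samples (orange squares). Simple epithelium keratins rise from 3.41 to 63.3 in mean sum, endoderm markers from 0.258 to 20.7 and mesothelium markers from 0.817 to 25.9, while the wound keratins are lower in all NPC samples.

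The keratin genes lie in a cluster on each of 2 chromosomes. On chromosome 11, 27 type I genes, all on the minus strand, span chr11:99232761-100269871 of GRCm38 from Krt222 to Krt42. A gap of 468 kb between Krt40 and Krt33a holds Krtap genes, and all 23 Krtap genes of the tables within the cluster had means under 0.1 RPKM, 20 of them at 0. On chromosome 15, all 26 type II genes and Krt18 span chr15:101347444-102032027, with Krt8 and Krt18 next to each other at the end.

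Neighbours on chromosome 11 differed in direction. Krt16, Krt17 and Krt42 follow each other at the end of the cluster and were all higher in ESCs, whereas the 4 genes before them, Krt15, Krt19, Krt9 and Krt14, were all higher in NPCs. Krt13, next to Krt15 on the other side, was higher in ESCs. The 6 genes from Krt80 to Krt86 on chromosome 15 include Krt7 at 8.20 RPKM per exon length in NPCs beside Krt87 at 0.128 and Krt88 at 0.181. Genes outside the clusters were expressed in both cell types on some sides, such as Smarce1 next to Krt222 (3.22 ± 0.340 RPKM in ESCs and 9.21 ± 0.276 in NPCs), Eif1 beyond Krt42 (153 ± 35.2 and 96.9 ± 1.16) and Eif4b beyond Krt18 (38.9 ± 9.41 and 49.0 ± 0.757, SD, n = 3). Gm11940 overlaps Krt10, Gm671 overlaps Krt7 and Gm36026 overlaps Krt8 on the opposite strand, and since the use of strand in counting is not given in the sources used here, their reads cannot be told apart from those of the keratins.

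**Figure D4:**
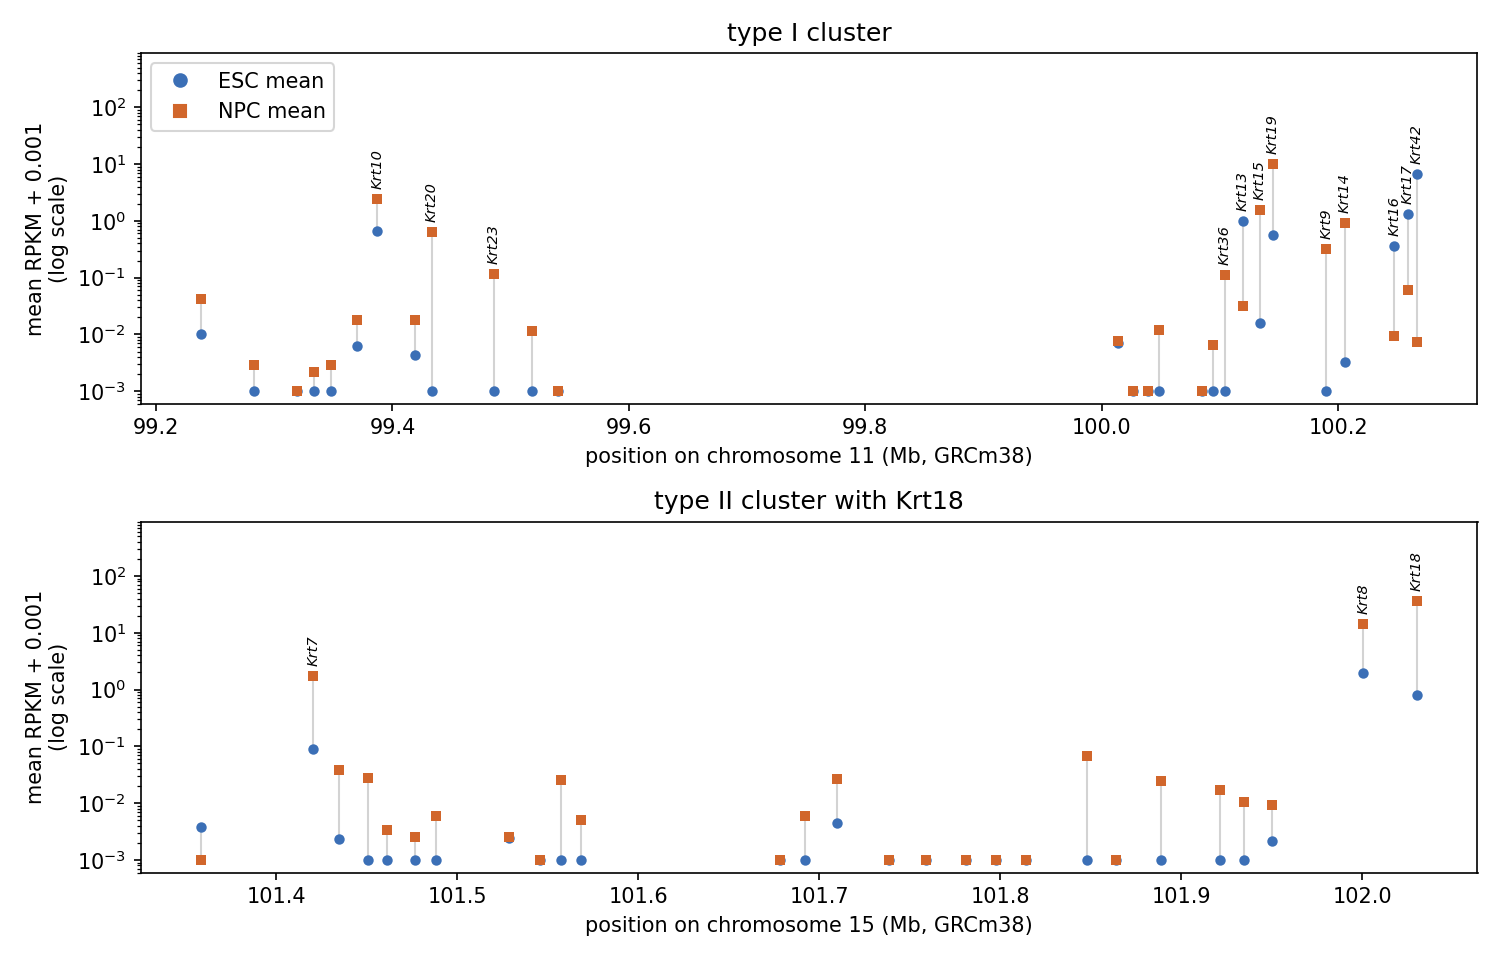
Mean RPKM plus 0.001 (log scale) of each keratin gene in ESCs (blue circles) and NPCs (orange squares) against its position on chromosome 11 (top) and chromosome 15 (bottom) of GRCm38, with genes of 0.1 RPKM or more named. Krt16, Krt17 and Krt42 at the right end of the chromosome 11 cluster are higher in ESCs, next to Krt14, which is higher in NPCs.

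No keratin gene lay in a NAD. The deposited lists held 1769 NADs in ESCs and 1447 in NPCs, each common to 2 experiments and without values per experiment. Of 21454 genes with a position, 26.9% overlapped a NAD in ESCs and 21.5% in NPCs, against 0 of 54 keratin genes in each. The keratin genes lie in 2 clusters and are not independent, so no test was made. The count was 0 of 54 as well with NADs up to 100 kb apart merged, which left the 1769 NADs of ESCs unchanged and joined those of NPCs into 1406.

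The nearest NADs of ESCs and NPCs lay at similar places on 3 of the 4 flanks of the clusters. On chromosome 11, the nearest was 933 kb before Krt222 in both cell types, from 98100456 to 98300082 in ESCs and from 98199388 to 98299711 in NPCs, each with a score of 0.0667. Beyond Krt42, the nearest lay 1229 kb away in ESCs and 1230.2 kb away in NPCs. On chromosome 15, the same interval, 102400420 to 102699595, was a NAD in both cell types, 368 kb beyond Krt18, with scores of 0.0366 in ESCs and 0.0422 in NPCs. Before Krt80, the nearest was 1948 kb away in ESCs and 10748 kb in NPCs. The scores are the authors' own, and each list was normalized separately. The median distance to the nearest NAD was 1.24 Mb for type I and 0.697 Mb for type II genes in ESCs and in NPCs, while that of 21259 genes on chromosomes with NADs was 0.195 Mb in ESCs and 0.319 Mb in NPCs. Keratins with large changes, such as Krt18 and Krt42, thus changed outside NADs of either cell type. Lamina associated domains were not analysed here.

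Promoters are shown for some of the keratins that rose from near 0 or fell to it, and for the partners Krt8 and Krt18. RefSeq promoters of GRCm38.p6, the 250 bases before the start, were at hand for 36 of the 54 keratin genes. Motifs were searched on both strands, and their choice and that of the genes printed followed the expression values. The TATA box, spelled TATAAA, was found in 17 of 36 keratin genes and in 14.3% of all 27025 genes. The nuclear receptor core AGGTCA was found in 7 of 36 keratin genes and in 15.8% of all genes. The GC box, spelled GGGCGG, was found in 2 of 36 keratin genes and in 35.4% of all genes. These shares were not tested, since the keratin genes are related and lie in clusters. The AP-1 site TGAGTCA was found in 1 of 36 keratin genes and in 5.16% of all genes. Keratin promoters held a median of 4 CpG dinucleotides, and all promoters a median of 6. A match of letters does not show that a factor binds. The sequences run 5′ to 3′ on the strand of the gene, stop where the GENCODE gene starts if that comes first, and have motif matches in capitals. Krt18 (chr15:102027966-102028179, plus strand) and Krt8 (chr15:102004483-102004592, minus strand) each hold an AGGTCA, starting at -108 and -225 from the RefSeq start. Krt42 (chr11:100269952-100270201, minus strand) holds it at -159, and Krt13 holds it at -84, so that this match occurs both in keratins that rose and in keratins that fell. In Krt20 (chr11:99438154-99438403, minus strand) TATAAA at -29 is followed directly by AGGTCA at -23. All promoters printed here hold AGGTCA, which is not typical of keratins that changed. The promoters of Krt7, Krt9, Krt10, Krt14 and Krt23, which also rose, hold no AGGTCA and are not printed.
Krt18: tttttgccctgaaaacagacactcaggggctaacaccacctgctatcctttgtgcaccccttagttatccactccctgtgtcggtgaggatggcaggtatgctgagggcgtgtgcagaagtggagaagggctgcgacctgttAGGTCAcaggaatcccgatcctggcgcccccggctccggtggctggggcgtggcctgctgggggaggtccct
Krt8: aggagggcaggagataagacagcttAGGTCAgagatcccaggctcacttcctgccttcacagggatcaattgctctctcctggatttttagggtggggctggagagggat
Krt42: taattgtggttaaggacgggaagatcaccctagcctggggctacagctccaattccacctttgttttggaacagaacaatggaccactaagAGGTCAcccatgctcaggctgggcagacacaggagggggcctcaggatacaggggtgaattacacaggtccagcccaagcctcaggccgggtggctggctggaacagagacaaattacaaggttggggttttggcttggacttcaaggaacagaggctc
Krt20: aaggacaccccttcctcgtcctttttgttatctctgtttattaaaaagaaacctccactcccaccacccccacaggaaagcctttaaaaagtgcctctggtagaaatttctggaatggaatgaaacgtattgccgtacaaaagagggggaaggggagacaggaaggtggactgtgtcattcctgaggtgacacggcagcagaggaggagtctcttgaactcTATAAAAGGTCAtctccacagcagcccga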

How the data were processed

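The sample labels gave groups and replicate numbers. RNAseq reads were passed by the authors through FastQC, SortMeRNA (to take out rRNA) and Trimmomatic, then mapped with STAR to mm10, and gene RPKM values were deposited as 1 table for each cell type. The submitters' processing notes also list Bowtie2 2.3.4.3 and Subread 1.4.6-p4. For NADs, the authors used Bowtie2 and mm10, ran the damidseq pipeline with H2B-Dam as the reference of H2B-Dam-NoLS, called peaks with find_peaks and deposited 1 score for each NAD common to both experiments. ChIPseq samples were not used here. Single results on a few list members are not reported here.

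Symbols on more than 1 line (153 of 21909) were left out, and 21454 were placed with GENCODE M21. Differences were tested with a trended limma fit (version 3.58.1, under R 4.3.3; Benjamini-Hochberg adjustment) on log2(RPKM + 1). This fit was tested on simulated data, and both the simulation and its pass rule were changed after a first version did not pass. Sums were compared with exact permutation tests. Counting intervals are exact (Clopper-Pearson, 95%). The rest ran in Python 3.11.15 (scipy 1.17.1, pandas 2.3.3, matplotlib 3.10.9, numpy 2.4.6). Copies of transcripts (at least 100 bases, 95% identity) were sought in GRCm38 with BLAST 2.17.0, a search added after values were seen.

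Members and lists were chosen with earlier results of these data known. Named were keratins with a group mean of 1 RPKM or more, the next 3 of each type, the most abundant member of each keratin group, and of each other list the most abundant gene and the 2 that rose and 2 that fell most among called genes. Krt4, Krt5, Krt9, Krt16, Krt23, Krt76 and the other genes outside this rule were named after their values were seen. Alternatives were other pseudocounts, filters, scalings, variance models and thresholds, a replicate block, and leaving out each sample. A group mean filter, RPKM per exon length, filtering again after leaving out a sample and counting keratins without ESC replicate 3 were chosen after seeing the data.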

Additional observations from a re-analysis of the deposited data

How the results depend on the processing

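The 7 called keratins kept their direction and an adjusted p under 0.05 in all 139 values they had over 22 alternatives, but were not tested under each of them. For Krt7, Krt10, Krt15, Krt19 and Krt42 this says little, since they were chosen through samples of 1 cell type and had to differ. By the rule that also asks for a log2 fold change of 1, Krt10 was lost with median scaling (0.96), quantile normalization (0.74) and without ESC replicate 1 (0.98), and Krt7 with quantile normalization (0.90). With genes chosen on all 6 samples, leaving out any sample left 7 of 7 called. With the filter applied again to the remaining samples, chosen after seeing the data and after the version with fixed genes, 3 to 6 keratins were called, 2 to 6 higher and 0 to 1 lower. Krt42 was then not tested without any ESC replicate, and Krt7, Krt10, Krt15 and Krt19 were not tested without any NPC replicate, since fewer samples can reach 3 above 1 RPKM. Over all genes these fits called 4610 to 6261 genes without an ESC replicate, and 3130, 3111 and 3108 genes (1168, 1129 and 1133 higher) without NPC replicates 1, 2 and 3. The highest count of higher genes was 3407, and lower genes ranged from 1861 to 2854. With genes chosen on all 6 samples the ranges were 4568 to 6813 called, 2500 to 3410 higher and 2063 to 3403 lower.

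Other filters test more genes. With no filter, 11366 genes were called (7200 higher and 4166 lower), 62.4% of those tested, among them 23 of 41 keratins (19 higher and 4 lower). With a mean of 0.1 RPKM or more, 8650 were called (5044 higher), 71.9% of those tested, among them 13 of 13 keratins (4 lower). With a group mean of 1 RPKM or more, 5672 were called (2975 higher and 2697 lower), 70.5% of those tested, among them 8 of 8 keratins (2 lower). Per exon length, 8846 were called (5280 higher), 73.0% of those tested, among them 11 of 11 keratins (3 lower). At 0.5 RPKM 7 keratins counted as expressed in ESCs and 8 in NPCs, and at 0.1 RPKM 8 in ESCs and 11 in NPCs. At 1 RPKM 2 counted in ESCs without replicate 3, chosen after seeing the data.

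Median scaling moved the median log2 difference of all tested genes from 0.03 to -0.09. The balance of all calls turned over, with 2553 genes higher and 2949 lower with median scaling and 2640 and 2970 with quantile normalization. The sum of NPCs minus ESCs remained above 0 for both types. By gene span it lay between 38.0 and 44.3 RPKM for type I and between 12.9 and 14.4 for type II. The lower ends came from median scaling, not from RPKM as deposited. With the replicate number as a block, 2735 genes were higher and 2426 lower, and the same 7 keratins were called. Same-numbered samples had correlations of deviations of 0.114, -0.0849 and 0.0310, and not every sample correlated best with its own number. The deviations are from means of 3 samples, and ESC replicate 3 stood apart. These values therefore cannot decide whether the numbers pair the samples.

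Plec was not called without NPC replicate 1, 2 or 3 (limma adjusted p = 0.0585, 0.0674 and 0.0602), and Cd151 and Vim were called higher without ESC replicate 3 (0.0156 and 0.00207) and after quantile normalization (0.00486 and 2.92e-04). Cd151 was also called without a filter and without a trend. The cause was not tested. With 3 samples of each cell type the precision is limited, and values of members with few reads carry a wide counting error.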
